A study of Homo sapiens with 6 samples.

Results

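Tight junctions seal the space between neighbouring epithelial cells, and the genes described here encode 9 of their proteins. They are the claudins CLDN1, CLDN3, CLDN4, CLDN7 and CLDN12, the tetraspan proteins OCLN (occludin) and MARVELD2 (tricellulin), the scaffold TJP1 (ZO-1) and the adhesion molecule F11R (JAM-A). They were taken by symbol from 81496 symbols on the array, and all 9 were found. Where a symbol had several probe sets, the one with the highest mean over 5 arrays was used.

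Claudins form the strands of the junction and set which ions and solutes pass between cells. Occludin and tricellulin share the strands, tricellulin mainly where 3 cells meet, while ZO proteins tie the strands to actin inside the cell and JAM-A helps to set up cell polarity. In mammary epithelium these junctions separate milk from the tissue below, and in stratified epithelium such as skin they seal the granular layer. Loss of claudins and occludin is a known feature of epithelial-mesenchymal transition, in which ZEB and Snail factors repress junction genes.

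Total RNA was profiled on Clariom D arrays, which read coding and noncoding transcripts with short probes. The parental line, MCF10.AT1, is a preneoplastic line of the human MCF10A breast epithelial series that carries an activated HRAS, and it was fluvastatin sensitive. The resistant line, MCF10.AT1-R, was derived from it under fluvastatin raised from 1 to 20 µM. Fluvastatin is a statin, an inhibitor of the enzyme that makes mevalonate. Whether the drug was present at harvest is not given in the sources used here. Each line had 3 arrays labelled as biological replicates. They all come from 1 parental and 1 derived line, so p-values rest on the spread between arrays and not between independently derived lines. In the main comparison that spread was 1 SD of 0.34, common to all tested probe sets and not each gene's own. The values are log2 values made by the RMA method, and levels of different genes cannot be set against each other. The question addressed is how the lines differ in these genes.

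Array A03 of MCF10.AT1 stood apart, and the study removed it too, so it was kept out of every comparison. Its correlation with each of the other arrays lay between 0.779 and 0.795, against 0.967 to 0.977 among the other 5. Its hybridization controls averaged 5.99, against 10.35 to 11.33 on the other 5. The comparison used A01 and A02 of MCF10.AT1 and B02, B03 and B04 of MCF10.AT1-R. The letter of the array name follows the line, so letter and line cannot be told apart. Probe sets were tested with limma when their mean and SD over the 5 arrays passed a filter blind to the lines, and a call means a false discovery rate (FDR) below 5%. A value under 2.99, the 95th percentile of the negative control probe sets, is described as within the negative controls. The 7 genes listed for a basal breast epithelial line, KRT5, KRT14, KRT17, KRT18, CDH1, TP63 and EGFR, lay above that level on all 5 arrays. They are not all particular to basal cells.

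The promoters of the 3 genes that were called, and of CLDN4, are shown so that their composition can be read beside the values. Each run is the 250 bases before the RefSeq start farthest upstream (GRCh38.p14), with capitals for any match, on either strand, to the E-box CAGGTG, a Grainyhead site AACCGGTT, a sterol element TCACNCCAC, an AP-1 site TGANTCA, a GC box GGGCGG or a TATA box TATAAA.
CLDN1, chr3:190322447-190322696, minus strand: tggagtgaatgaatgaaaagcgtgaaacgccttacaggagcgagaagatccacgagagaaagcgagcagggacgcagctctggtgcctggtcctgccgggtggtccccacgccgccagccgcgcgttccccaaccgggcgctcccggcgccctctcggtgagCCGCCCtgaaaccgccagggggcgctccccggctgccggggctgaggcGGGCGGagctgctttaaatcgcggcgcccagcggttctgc
CLDN7, chr17:7263214-7263463, minus strand: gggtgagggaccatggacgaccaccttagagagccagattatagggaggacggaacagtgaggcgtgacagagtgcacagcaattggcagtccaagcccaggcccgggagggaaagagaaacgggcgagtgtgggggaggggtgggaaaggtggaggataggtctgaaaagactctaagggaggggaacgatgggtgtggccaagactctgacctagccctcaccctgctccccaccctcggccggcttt
OCLN, chr5:69492297-69492546, plus strand: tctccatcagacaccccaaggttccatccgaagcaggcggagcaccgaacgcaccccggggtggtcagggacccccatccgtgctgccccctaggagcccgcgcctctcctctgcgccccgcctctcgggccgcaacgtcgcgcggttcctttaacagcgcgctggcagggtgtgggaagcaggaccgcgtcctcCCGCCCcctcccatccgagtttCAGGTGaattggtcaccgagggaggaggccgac
CLDN4, chr7:73830746-73830995, plus strand: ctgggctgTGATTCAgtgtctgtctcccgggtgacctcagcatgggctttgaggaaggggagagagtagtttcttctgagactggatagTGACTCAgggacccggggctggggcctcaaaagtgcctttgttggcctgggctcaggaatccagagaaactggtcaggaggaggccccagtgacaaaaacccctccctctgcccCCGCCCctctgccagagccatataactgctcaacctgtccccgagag

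Of the 9 members, 8 matched a promoter in the RefSeq table. Each of the 8 was read at its start farthest upstream, while the shares of all promoters cover 35116 listed promoters with no such choice. The E-box CAGGTG, a sequence that ZEB and Snail factors can bind, was found in 2 of the 8, OCLN and TJP1, and in 17.5% of all promoters of this length. The GC box was found in 6 of the 8 and in 42.6% of all promoters. AP-1 sites lay in CLDN4 alone among the members, with 2 matches, against 6.57% of all promoters. No member held the Grainyhead site, the sterol element or the TATA box, which were found in 0.117%, 0.883% and 10.7% of all promoters. CLDN7 and CLDN12 held none of these letters in this window. A match is a string of letters and not a site shown to be used.

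In MCF10.AT1-R, CLDN1, CLDN7 and OCLN rose and no member fell. These were 3 of 9 members past FDR 5% in limma, and 0.758% of the 51457 tested probe sets were called higher. At an unadjusted p under 0.05, 6 members were higher and 0 lower, against 3.98% and 4.27% of tested probe sets. The 3 resistant arrays all exceeded the 2 parental ones for 7 of the 9 members, which was true of 12.9% of tested probe sets. The reverse order was seen for no member and 13.8% of tested probe sets, making 26.7% without overlap in either direction. The exceptions were CLDN3 and CLDN12. The log2 changes of the 9 ranged from -0.25 to 2.22 with a median of 0.97, beside a median of -0.01 over all tested probe sets. All 9 members passed the filter on low and invariant probe sets. That filter kept probe sets with means down to 1.88, within the negative controls. With its low limit at the negative controls, 468 of 24737 probe sets were called higher, and 6 of the members. The members were chosen with earlier results of these data known, so these shares describe the group and do not test it. The RNA of a culture does not tell more cells with a transcript from more transcript per cell.

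**Figure D1:**
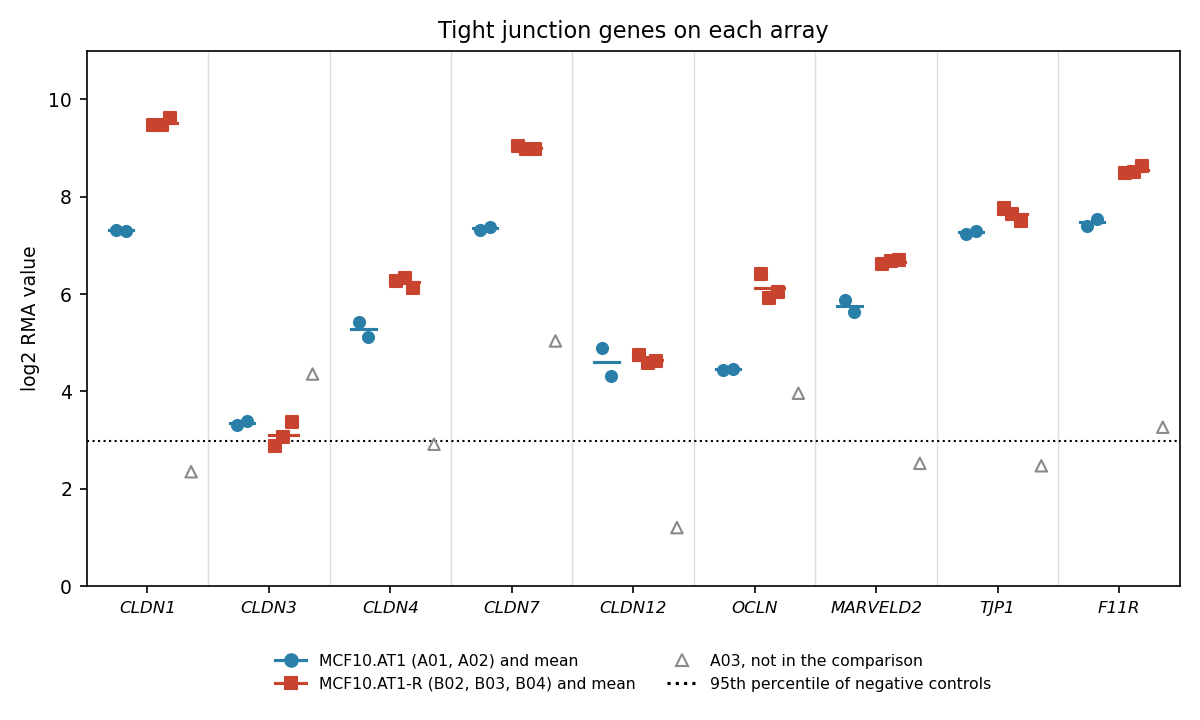
Each point is the log2 RMA value of 1 gene on 1 array, with short lines for the mean of each line. Squares (MCF10.AT1-R) lie above circles (MCF10.AT1) for 7 of the 9 genes, and they overlap for CLDN3 and CLDN12. Triangles are A03, and the dotted line is the 95th percentile of the negative controls at 2.99.

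CLDN1 encodes the claudin that the barrier of the epidermis depends on, and it had the largest change of the 9 members. It read 7.32 and 7.29 on the MCF10.AT1 arrays and 9.48, 9.48 and 9.61 on the MCF10.AT1-R arrays. The arrays within each line lay close together and far from those of the other. The means were 7.31 ± 0.02 (SD, n = 2) and 9.52 ± 0.07 (SD, n = 3), a log2 change of 2.22 with a standard error of 0.31, or 4.65-fold (adjusted p = 8.79e-10 from limma). Without the filter the adjusted p of CLDN1 was 0.00411 in limma. CLDN1 passed FDR 5% with any 1 of the 5 arrays left out, with adjusted p between 4.78e-08 and 4.47e-05 in limma.

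CLDN7, a claudin of mammary ducts and many other simple epithelia, binds the surface protein EPCAM. It read 7.32 and 7.38 in MCF10.AT1 and 9.05, 8.97 and 8.98 in MCF10.AT1-R. Here too the lines were separated by many times the spread within either. The log2 change was 1.65 (standard error 0.31), or 3.14-fold, with an adjusted p of 3.56e-05 from limma, and of 0.0162 without the filter. With 1 array left out the adjusted p in limma lay between 0.000328 and 0.0158. RefSeq lists a pseudogene, CLDN7P1, and whether probes of CLDN7 match it was not tested.

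CLDN4 encodes a claudin that lowers sodium passage and binds an enterotoxin of Clostridium perfringens. Its values were 5.43 and 5.13 in MCF10.AT1 and 6.27, 6.33 and 6.13 in MCF10.AT1-R. The arrays did not overlap, but the log2 change of 0.97 did not pass FDR 5% (adjusted p = 0.108 from limma). Its unadjusted 95% interval ran from 0.36 to 1.58.

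CLDN3, which lies next to CLDN4 in RefSeq with no gene between them, encodes a second receptor of the same enterotoxin. It read 3.32 and 3.40 in MCF10.AT1 and 2.89, 3.06 and 3.38 in MCF10.AT1-R. All of these are close to the negative controls, and B02 lay within them. The arrays overlapped, and the log2 change of -0.25 had a 95% interval from -0.86 to 0.36 (adjusted p = 0.851 from limma). Whether the neighbours CLDN3 and CLDN4 differ in their change was not tested.

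CLDN12 encodes a claudin that lacks the tail by which most claudins bind ZO proteins. Its values were 4.89 and 4.31 in MCF10.AT1 and 4.75, 4.58 and 4.64 in MCF10.AT1-R. The MCF10.AT1 arrays spanned the whole range of the other line. The log2 change was 0.06, with a 95% interval from -0.56 to 0.67 (adjusted p = 0.97 from limma), and its sign turned to -0.23 without A02.

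OCLN encodes occludin, a strand protein with 4 membrane spans. It read 4.44 and 4.47 in MCF10.AT1 and 6.41, 5.91 and 6.03 in MCF10.AT1-R. The lowest resistant array was well above both parental arrays, while B02 stood higher than B03 and B04. The log2 change was 1.67 (standard error 0.31), or 3.17-fold, with an adjusted p of 2.77e-05 from limma, and of 0.0332 without the filter. The adjusted p in limma lay between 0.000159 and 0.0125 with 1 array left out, and it was 0.138 when values within the negative controls were raised to 2.99. OCLN lay above 2.99 on all 5 arrays, so none of its own values were raised. RefSeq lists a transcribed pseudogene, OCLNP1, whose share in the probe signal was not tested.

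MARVELD2 encodes tricellulin and lies beside OCLN, with no protein-coding gene between them in RefSeq. It read 5.89 and 5.63 in MCF10.AT1 and 6.61, 6.69 and 6.69 in MCF10.AT1-R. The arrays did not overlap, and the log2 change of 0.91 did not pass FDR 5% (adjusted p = 0.17 from limma, 95% interval from 0.29 to 1.52). A further probe set of MARVELD2 lay within the negative controls on all 5 arrays, at 1.34 to 2.54.

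TJP1 encodes ZO-1, the scaffold on which strand proteins assemble. Its values were 7.23 and 7.30 in MCF10.AT1 and 7.77, 7.65 and 7.51 in MCF10.AT1-R. Although the arrays did not overlap, the gap between the nearest of them was smaller than the spread within MCF10.AT1-R. The log2 change of 0.37 had a 95% interval from -0.24 to 0.99 (adjusted p = 0.823 from limma). A further probe set lay within the negative controls, at 0.75 to 1.20, and with both probe sets averaged the change was 0.04. RefSeq lists a pseudogene, TJP1P1, whose match to the probes was not tested.

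F11R encodes JAM-A, an immunoglobulin-like adhesion molecule that recruits polarity proteins to the forming junction. It read 7.40 and 7.55 in MCF10.AT1 and 8.48, 8.51 and 8.64 in MCF10.AT1-R. The arrays were well separated. The log2 change of 1.06, or 2.09-fold, lay just outside the threshold (adjusted p = 0.0521 from limma, 95% interval from 0.45 to 1.67).

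**Figure D2:**
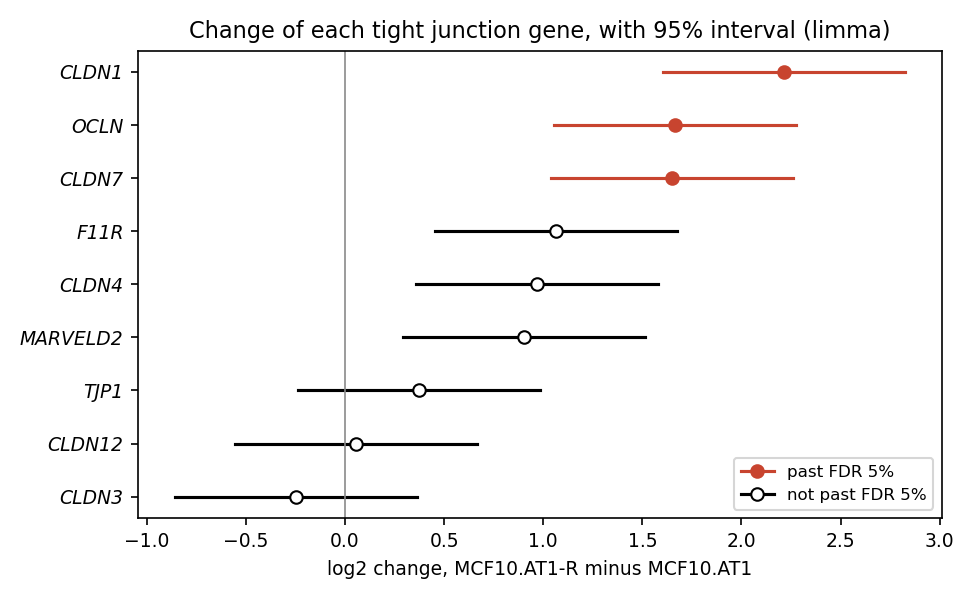
Points are the log2 change (MCF10.AT1-R minus MCF10.AT1) of each gene and bars its unadjusted 95% interval in limma over 5 arrays. Filled points, CLDN1, OCLN and CLDN7, passed FDR 5%. The intervals of F11R, CLDN4 and MARVELD2 lie above 0 without passing after adjustment, and those of TJP1, CLDN12 and CLDN3 span 0.

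The threshold depended on how limma modelled the variance. After the filter it used 1 common SD of 0.34 for every probe set. All 9 members had a residual SD, pooled over both lines, below that, though CLDN12 had an SD of 0.41 within MCF10.AT1. With a variance that varied with expression (the trend option), 6 of the 9 members passed FDR 5%, with CLDN4 (adjusted p = 0.00133 from limma), MARVELD2 (adjusted p = 0.000923) and F11R joining CLDN1, CLDN7 and OCLN. With that setting 1.69% of tested probe sets were called higher. CLDN3, CLDN12 and TJP1 were not called in any alternative, though the average of the TJP1 probe sets was removed by the filter and not tested.

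On A03, 8 of the 9 members read lower than on every other array. CLDN1 read 2.35 and TJP1 read 2.47 there, both within the negative controls. The exception was CLDN3, at 4.36. With A03 counted as MCF10.AT1 the log2 change of CLDN1 was 3.87 and no member passed FDR 5%.

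Among the 49 other genes of the tight junction on the fixed lists, 3 rose, none fell, 29 did not pass and 17 were removed by the filter. Over all tested probe sets 0.758% were called higher and 0.447% lower. The median log2 change of the 49 genes was 0.12. LSR (angulin-1), which recruits tricellulin to the corners of cells, read 5.61 and 5.54 in MCF10.AT1 and 7.01, 6.54 and 7.06 in MCF10.AT1-R. It rose 2.45-fold, by 1.30 on the log2 scale (adjusted p = 0.00501 from limma). INADL (now PATJ), a scaffold of the Crumbs polarity complex, read 5.80 and 5.75 against 7.23, 6.99 and 7.14 and rose by 1.34 (adjusted p = 0.00285 from limma). AMOTL1, an angiomotin that binds junction scaffolds, read 5.78 and 5.95 against 7.24, 6.89 and 7.63 and rose by 1.38 (adjusted p = 0.00173 from limma). Over the 49 genes the resistant arrays all lay above the parental ones for 18 and all below for 5. These orders were seen for 12.9% and 13.8% of tested probe sets. LSR, INADL and AMOTL1 were 3 of the 18. None of them passed without A01 or without A02, where the adjusted p in limma was 0.12 and 0.188 for LSR, 0.0955 and 0.145 for INADL, and 0.145 and 0.0562 for AMOTL1. Nor did they pass when no filter was applied (adjusted p = 0.127, 0.0549 and 0.152 in limma).

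No other claudin was called. Of the 19, 13 were tested, none passed FDR 5% or an unadjusted p of 0.05 in limma, and 9 lay within the negative controls on all 5 arrays. Their log2 changes ranged from -0.67 for CLDN17 to 0.48 for CLDN18, with a median of -0.05. The resistant arrays all lay above the parental ones for 1 of the 19 and all below for 3, beside 12.9% and 13.8% of tested probe sets. These 3 were CLDN9, at -0.48 without a call, CLDN17 and CLDN25. CLDN17 was not tested and lay within the negative controls on every array. Of the 8 other membrane proteins, CXADR, a virus receptor at the junction, had a log2 change of 0.80 and was not called (adjusted p = 0.307 from limma). Of the 10 plaque genes none passed FDR 5% in limma. An unadjusted p under 0.05 was found for 2 of them, beside 3.98% of tested probe sets higher and 4.27% lower. Among plaque genes the changes furthest from 0 were 0.62 for CGN (cingulin) and -0.75 for MAGI1, a scaffold, with adjusted p of 0.589 and 0.379 from limma. Of the 12 polarity genes 2 rose, those named above. CRB3, the Crumbs protein of epithelia, read 5.84 and 5.87 in MCF10.AT1 and 6.12, 6.05 and 6.40 in MCF10.AT1-R, with a log2 change of 0.34 and no call (adjusted p = 0.835 from limma).

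**Figure D3:**
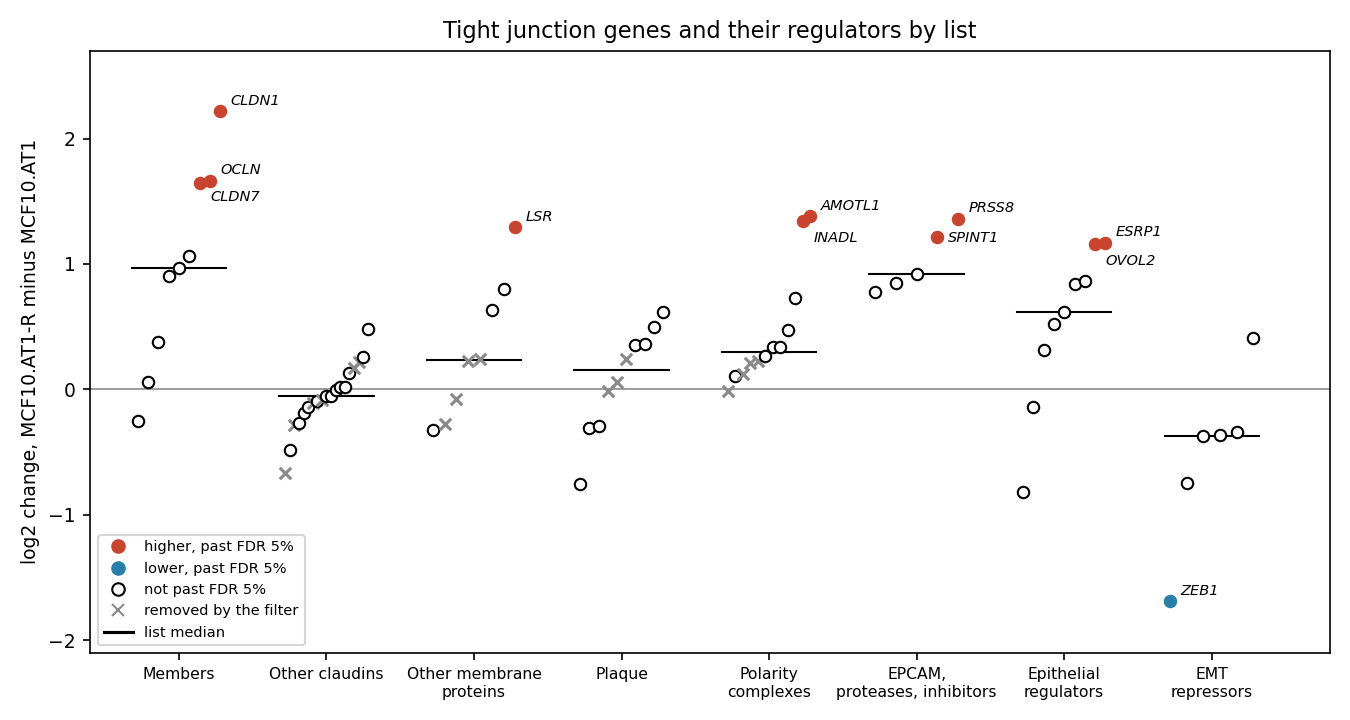
Each point is the log2 change (MCF10.AT1-R minus MCF10.AT1) of 1 gene, grouped by list, with a line at the list median. Filled points passed FDR 5% in limma and crosses were removed by the filter. The medians run from -0.37 for the EMT repressors to 0.97 for the 9 members, and the other claudins centre on -0.05.

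EPCAM, which binds claudin-7, was read in a list of 5 with surface proteases and their inhibitors. Of these 5 genes 2 rose and the rest did not pass, beside 0.758% of tested probe sets called higher. EPCAM holds claudin-7 in a complex, ST14 (matriptase) and PRSS8 (prostasin) are surface proteases, and SPINT1 and SPINT2 inhibit them. PRSS8 rose by 1.36 (adjusted p = 0.00221 from limma), but without A01 its change was 1.03 with an adjusted p of 0.47. SPINT1 rose by 1.21 (adjusted p = 0.0127 from limma) and did not pass without A01, A02 or B04 (adjusted p = 0.256, 0.215 and 0.0802). Without the filter neither passed (adjusted p = 0.251 for PRSS8 and 0.0981 for SPINT1 in limma). The log2 changes of EPCAM, ST14 and SPINT2 were 0.78, 0.92 and 0.85, none of them past FDR 5%. All 5 genes had every resistant array above every parental array, as did 12.9% of tested probe sets.

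Transcription and splicing regulators of epithelial junction genes were also read. ZEB1, a repressor of CDH1 and other junction genes, read 4.37 and 4.86 in MCF10.AT1 and 2.92, 2.66 and 3.20 in MCF10.AT1-R. It fell by 1.69 on the log2 scale, or 3.23-fold (adjusted p = 1.9e-05 from limma). Since B02 and B03 lay within the negative controls, the change was -1.56 with those values raised to 2.99. ZEB1 did not pass without A02, where the change was -1.44 (adjusted p = 0.0651 from limma), or without the filter (adjusted p = 0.0606). ZEB1 was the single call among 6 repressors, and 0.447% of tested probe sets were called lower. ZEB2 read 4.16 and 4.35 against 3.45, 3.55 and 3.52, a change of -0.75 (adjusted p = 0.387 from limma), while SNAI2 (Slug) was 0.41 higher on the log2 scale without a call (adjusted p = 0.808).

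Of 9 genes known to promote an epithelial program, 2 rose, beside 0.758% of tested probe sets called higher. OVOL2, a repressor of mesenchymal genes, read 3.98 and 3.64 in MCF10.AT1 and 4.71, 4.91 and 5.29 in MCF10.AT1-R, and rose by 1.16 (adjusted p = 0.0212 from limma). ESRP1, an epithelial splicing factor, read 7.61 and 7.42 against 8.67, 8.69 and 8.68 and rose by 1.17 (adjusted p = 0.0196 from limma). Neither passed without A01 (adjusted p = 0.117 for OVOL2 and 0.177 for ESRP1 in limma), without A02 (0.578 and 0.441) or without B04 (0.17 and 0.0558), and ESRP1 did not pass without B02 (0.0532). Without the filter the adjusted p in limma was 0.236 for OVOL2 and 0.094 for ESRP1. GRHL2 and GRHL3, Grainyhead factors that bind claudin genes, had log2 changes of 0.84 and 0.86 and were not called. KLF4, a barrier factor, had one of -0.82, also without a call.

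**Figure D4:**
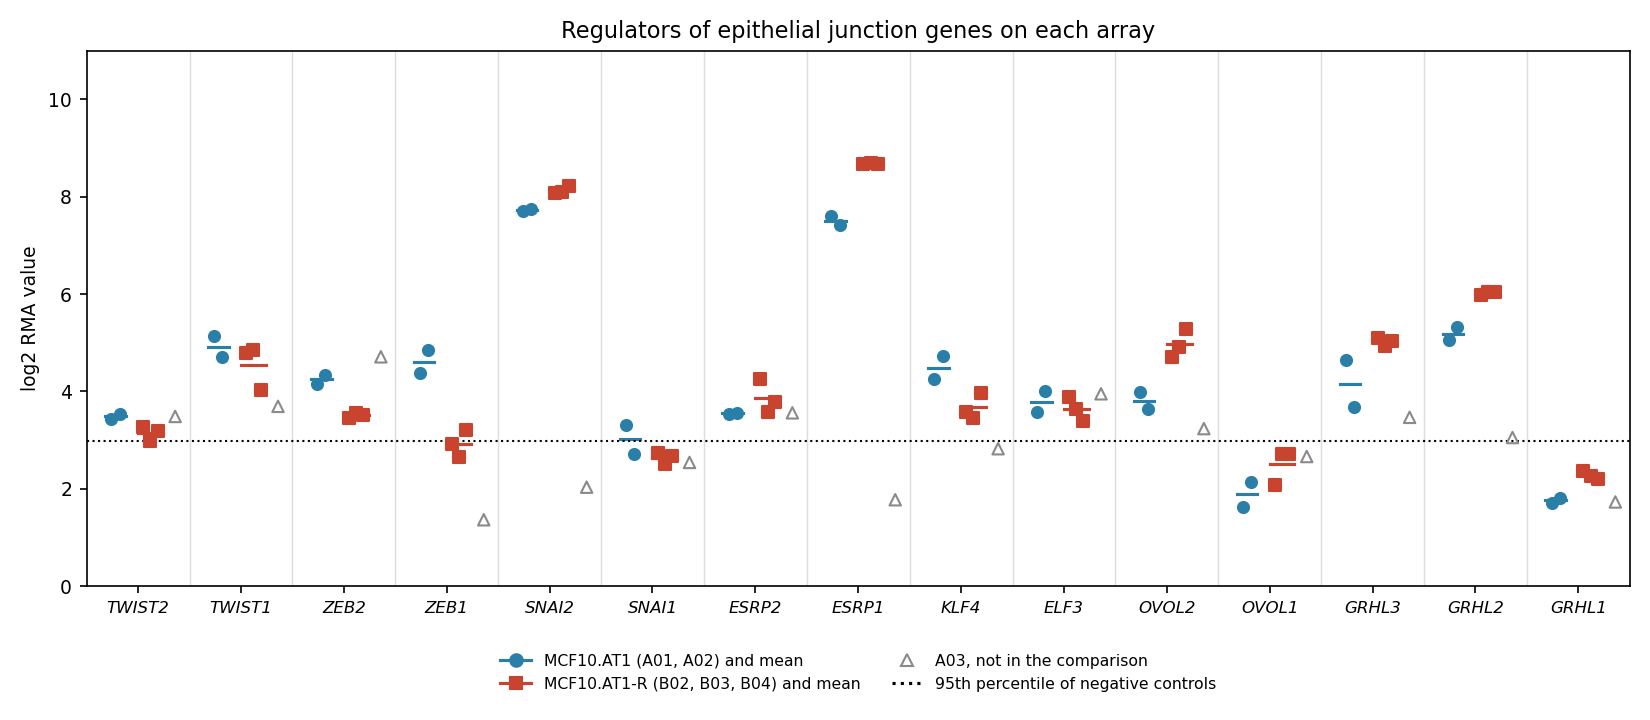
Each point is the log2 RMA value of 1 regulator on 1 array, with short lines for the mean of each line, triangles for A03 and a dotted line at 2.99, the 95th percentile of the negative controls. ZEB1 fell towards the dotted line in MCF10.AT1-R (squares), and OVOL2 and ESRP1 rose. These 3 genes passed FDR 5%.

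Genes of the neighbouring junctions were read in the same comparison, in which 0.758% of tested probe sets were called higher. Of 10 adherens junction genes, CDH1 (E-cadherin) rose, by 1.30 (adjusted p = 0.00481 from limma), and did not pass without A01 or A02 (adjusted p = 0.0834 and 0.248) or without the filter (0.0616). Of 12 desmosome genes 4 rose, DSG3 by 2.04, DSC2 by 1.58, DSP by 1.41 and JUP by 1.25. DSP and JUP did not pass without A01 (adjusted p = 0.0774 and 0.0982 in limma) or without A02 (0.0749 and 0.34), and JUP did not pass without the filter (0.0777). The log2 change of PERP, a desmosome protein, was 1.06 (adjusted p = 0.0525 from limma).

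Some markers of other cell states moved with the line, and their part in the results above was not tested. Over all tested probe sets 0.758% were called higher and 0.447% lower. The summed log2 level of the 9 members was 52.5 to 53.2 in MCF10.AT1 and 61.2 to 61.7 in MCF10.AT1-R. Of 6 markers of cornifying keratinocytes, KRT1, IVL and CDSN rose, by 1.10, 3.23 and 1.14, and the summed level went from 19.0 to 19.3 in MCF10.AT1 to between 23.98 and 26.1 in MCF10.AT1-R. KRT1 did not pass with any 1 array left out (adjusted p from 0.0502 to 0.407 in limma), and CDSN passed only without B03, with adjusted p from 0.0566 to 0.414 without each of the others. FLG, a defining marker, lay within the negative controls on all 5 arrays, LOR read 2.58 to 3.00, and KRT10 changed by 0.58 without a call. Of the 7 genes listed for a basal breast epithelial line 5 rose, KRT5, KRT14, KRT17, TP63 and CDH1, the last also an adherens gene. KRT18 and EGFR changed by 0.85 and 0.08 without a call. The summed levels of all 7 were 48.4 to 49.0 in MCF10.AT1 and 60.6 to 61.2 in MCF10.AT1-R. Of 6 fibroblast markers DCN fell by 2.15, and LUM and PDGFRB lay within the negative controls. COL1A1, COL1A2 and COL3A1 lay above them on all 5 arrays, with log2 changes of 0.15, 0.13 and -0.16, and the filter removed them. The median change of the 6 was -0.03, and their summed level was 27.0 to 27.7 in MCF10.AT1 and 24.8 to 25.6 in MCF10.AT1-R. Of 4 endothelial markers PECAM1 fell by 1.12 on the log2 scale, while CDH5, CLDN5 and VWF changed by -0.19, -0.05 and -0.003 without a call. The summed levels of the 4 were 15.9 to 16.2 in MCF10.AT1 and 14.5 to 14.9 in MCF10.AT1-R. KRT1, CDSN and PECAM1 did not pass without the filter (adjusted p = 0.136, 0.263 and 0.17 in limma). PECAM1 passed only without B04 when 1 array was left out, with adjusted p from 0.0946 to 0.435 without each of the others.

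The genes nearest in pattern to the called members were found by the root mean square difference of log2 values, each centred on its mean over the 5 arrays, among 35765 other tested symbols. With 5 arrays this is a description and was not tested. For CLDN1 they were ANXA8L1, SPRR1A and LAMA3, at 0.08, 0.09 and 0.10. For CLDN7 they were TMEM139, CH17-360D5.3 and MIR205HG, at 0.04, 0.06 and 0.06. For OCLN they were CSTA, EHF and CD82, at 0.07, 0.07 and 0.10.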

How the data were processed

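Total RNA of MCF10.AT1 and MCF10.AT1-R was measured on Clariom D arrays, 3 per line. The authors deposited log2 values made by RMA (background correction, quantile normalization and summarisation into probe sets) with the Bioconductor packages affy and oligo, for all 6 arrays and before any filter. Versions and genome build are not given in the sources used here. Array names were assigned to lines through the study's principal component plot, and they carry no replicate number. A03 was left out, as in the study.

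Of 135750 transcript probe sets, 51457 were kept, with a mean over the 5 arrays above the median (1.88) and an SD above the lowest 25% (0.18). These limits were chosen here. R 4.3.3 with limma 3.58.1 was used to fit a linear model per probe set (lmFit, then eBayes) with line as its single term, and p-values were adjusted by Benjamini-Hochberg over all tested probe sets with a threshold of FDR 5%. The fit was run on simulated data, with a check only that the median error of the log2 change was under 0.1 in size. That check set no limit on false calls. An exact permutation test of 2 arrays against 3 cannot give a p below 0.1 and was not used. The number of arrays limits the precision. Named by rule are all members, the called genes of each list (at most 4 in the regulator, junction and marker lists), the largest changes among other tight junction genes (at most 3 per list and direction), defining markers and the 3 nearest profiles of each called member. EPCAM, ST14, SPINT2, GRHL2, GRHL3, KLF4, ZEB2, SNAI2 and PERP were added after their values were seen. The members and lists were chosen with earlier results of these data known. The alternatives changed the arrays, filter, variance model, normalization, floor or choice of probe set, and the low-expression filter with the variance trend was added after the data were seen. A mean over a line's arrays is given ± SD. A further claudin partner was kept out of its list and is not reported here.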

Additional observations from a re-analysis of the deposited data

Results flagged for a closer look

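CLDN3 read 4.36 on A03, the MCF10.AT1 array kept out of the comparison, above the 3.32 and 3.40 of the other MCF10.AT1 arrays and above the 95th percentile of the negative controls on A03, 3.15. The other 8 members read lower on A03 than on every other array. Hybridization controls averaged 5.99 on A03 and 10.35 to 11.33 on the other arrays. The CLDN3 value on A03 was therefore not read as a result about CLDN3.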

How the results depend on the processing

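CLDN1 and CLDN7 passed FDR 5% in 16 of 17 alternatives and OCLN in 15 of 17. When A03 was added back these 3 did not pass, at log2 changes of 3.87, 2.42 and 1.83. OCLN at 1.67 did not pass with values raised to the negative controls, though none of its own were raised. CLDN3 and CLDN12 passed in none of the 17, and TJP1 in none of those in which it was tested. Averaging its probe sets gave 0.04, with no test since the filter removed the average. CLDN4 at 0.97, F11R at 1.06 and MARVELD2 at 0.91 passed with the variance trend, with the low filter set at the negative controls, and with the low-expression filter plus trend. CLDN4 also passed at 1.13 with A03 added back under array weights, and F11R at 1.06 with robust variance and with probe sets averaged per symbol. The log2 change of CLDN12 was -0.23 without A02, a reversed sign, and positive without each other array, up to 0.35.

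The count of members past FDR 5% was 0 with A03 added back, and 6 with the variance trend, with the low filter at the negative controls and with the low-expression filter plus trend, and 3 with each array left out. For other tight junction genes the count of 3 became 0 with A03 added back, without a filter and with the floor, and 1 with the low-expression filter alone, and ranged from 0 to 3 with 1 array left out. In the comparison itself 8 of these genes had an unadjusted p under 0.05 in limma, beside 3.98% of tested probe sets higher and 4.27% lower. Over all probe sets the count of 620 became 44 with A03 added back, 1377 with the trend, 182 with the low-expression filter alone, 177 without a filter, 177 with the floor and 1086 with the low-expression filter plus trend, and 280 to 575 with 1 array left out. Of the called probe sets 62.9% were higher, against 97.7% with A03 added back, 80.8% with the low-expression filter alone and 80.8% without a filter. The causes were not tested. No paired analysis was possible because the array names carry no replicate numbers. For CLDN3, near the negative controls, and the 9 other claudins within them on all 5 arrays, a fall could not be read reliably.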
